A study of Mus musculus with 12 samples.

Results

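The regions described here are the N6-methyladenosine (m6A) peaks of genes that carried a peak in Mettl3 knockout cells and none in wild-type cells. They were chosen from the 2 deposited peak lists: a peak was taken when its gene, named by gene ID, had at least 1 row in the knockout list and no row in the wild-type list. This gave 874 peaks of 708 genes, out of 41153 knockout peaks and out of 14078 genes with a peak in either list (5.03%). The choice rests on measured values, so the presence of these peaks in 1 list is a description and not a finding. The 708 genes were 5.43% of the 13031 genes with a knockout peak, and in the other direction 1047 genes, 7.83% of the 13370 genes with a wild-type peak, had no knockout peak.

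The cells were BV2, an immortalised mouse microglial line, wild type (WT) or with Mettl3 knocked out (KO), and both genotypes were treated with bacterial lipopolysaccharide (LPS). Each genotype had 3 m6A immunoprecipitation (IP) libraries and 3 input libraries, 12 in all, and an untreated group was not analysed here. Whether the knockout line was 1 clone, and whether the replicates were separate cultures, was not stated in the labels. The extraction protocol speaks of neuroblastoma cells although the sample labels name BV2 microglia. Of 12 microglia and macrophage markers, 11 had a peak in both lists and P2ry12 had none in either. Of 12 neuronal and neuroblastoma markers 1, Tubb3, had a peak, and none of these markers, nor any of 23 astrocyte, oligodendrocyte, endothelial and T-cell markers, was among the 708 genes. Each list holds 1 value per peak with no value per library, so there was no replicate spread, no test between the genotypes was possible, and the depth behind each peak is unknown. Mettl3 had 6 peaks in the KO list and 3 in the WT list, which measures enrichment of its remaining RNA and checks neither the knockout nor the labels.

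METTL3 is the catalytic subunit of the complex that methylates adenosines in messenger RNA, mostly within short motifs around a GAC core and often near stop codons and in 3' untranslated regions (UTRs). An m6A antibody enriches RNA fragments that carry the mark, and a peak is a stretch where the IP exceeds the input. In microglia and macrophages m6A is known for its effect on the stability of transcripts of the inflammatory response. The log2 values below compare IP with input for 1 peak, and both they and the adjusted p-values are the authors' own deposited values.

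MicroRNA genes are the members whose product is a short sequence, so their mature strands are shown first. The KO list placed peaks on 6 genes without a WT peak that have RefSeq microRNA entries: Mir22, Mirlet7b, Mirlet7c-2, Mir18, Mir6236 and Gm38670, the last holding miR-9769. RefSeq (GRCm38.p6) gives a hairpin for 5 of them, at the same coordinates as the deposited gene in all 5. MicroRNAs find their targets mainly through the seed, bases 2 to 8, which is in capitals, and the strands are written 5' to 3'.
mmu-let-7b-5p: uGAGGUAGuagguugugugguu
mmu-let-7c-5p: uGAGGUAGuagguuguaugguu
mmu-miR-22-5p: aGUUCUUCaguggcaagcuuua
mmu-miR-22-3p: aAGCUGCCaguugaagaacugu
mmu-miR-18a-5p: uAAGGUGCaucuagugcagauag
mmu-miR-6236: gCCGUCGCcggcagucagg
mmu-miR-9769-5p: aGGCACAGaauuaggcccgacc

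The 11 mature strands of these genes carry 9 different seeds, since let-7b and let-7c, neighbours on chromosome 15, share the seed GAGGUAG of their 5p strands and another on their 3p strands. Only 5 of the 11 strands lay wholly inside the peak of their gene, and 4 had no base in it. The Mirlet7b peak (log2 of 0.95) at chr15:85706926-85707350 contained all 22 bases of let-7b-5p, at chr15:85707325-85707346 on the plus strand, and none of its 3p strand. The Mirlet7c-2 peak (0.79) began downstream of let-7c-5p and took in 22 of the 95 hairpin bases. The Mir22 peak (0.99) spanned 2037 bases, 60 of them in the hairpin of 95 bases, with all of miR-22-5p and 4 bases of miR-22-3p. The Mir18 peak (0.58) reached 16 bases into its hairpin and ended at the base before miR-18a-5p. The Mir6236 peak (1.69) covered its whole listed gene, and the Gm38670 peak (1.57) covered 75 of the 77 hairpin bases. The Gm38670 peak also overlapped, on the same strand, a WT peak of 505 bases that the authors assigned to Hspb6 (0.71), so this position was marked in both lists. For all 5 genes with a hairpin entry the peak was longer than the hairpin and lay mostly outside it. The deposited adjusted p was 0.046 for Mirlet7c-2, 0.015 for Mir18, 0.0070 for Mir22 and 0.0020 for Mirlet7b. It was at or below 0.001 only for Gm38670 (2.18e-04) and Mir6236 (1.44e-04).

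The primary transcripts of microRNAs were also among the members. Of 11 microRNA host genes searched for, 4 had a KO peak and 3 of these had no WT peak: Mir22hg (1.06), Mir155hg (0.55) and Mir142hg (0.53). The other, Mir17hg, had peaks in both lists, at 1.07 in KO and 1.06 in WT. Mir155hg is the precursor of miR-155, a microRNA induced by LPS in macrophages, and its 1 peak spanned 100 bases with an adjusted p of 0.029. The Mir22hg peak lay next to that of Mir22, from 75463876 to 75466427 on chromosome 11, and overlapped a WT peak that the authors assigned to Tlcd2 (1.51). Among microRNA genes and hosts found by name, 8 of the 18 with a KO peak had no WT peak (44.4%, 95% Wilson interval 24.6 to 66.3). Gm38670, whose name is of another kind, is not counted here. Mir22 and Mir22hg are neighbours, as are Mirlet7b and Mirlet7c-2. The 8 are thus not separate loci, although the interval treats them as separate. In the other direction, 7 of the 17 with a WT peak had no KO peak (41.2%). Over all genes these shares were 5.43% of those with a KO peak and 7.83% of those with a WT peak.

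The first bases of a transcript could be read for members whose peak covered the RefSeq start. Of 274 members with such an entry, 18 had a peak covering all 50 bases after a start on the same strand. The letters GGAC, a common form of the m6A motif, were searched for in these bases. On the transcript strand they were in 2 of the 18 genes (11.1%, 95% Wilson interval 3.10 to 32.8). Of all 32851 RefSeq windows of 50 bases, with or without a peak, 18.9% held them. On the other strand GGAC was in 4 of the 18, beside 17.4% of all windows. The members are counted per gene, with a match at any start, and the rest per window, so these shares differ in unit. The matches were in Syt8, a synaptotagmin gene with 2 listed starts inside its 5' UTR peak (0.998), and in the noncoding Gm26628 (0.56). The 30 bases around each match are written 5' to 3' on the transcript strand, with GGAC in capitals.
Syt8 at chr7:142434997-142435026 (+): caggtgctgcctgagagtGGACaaccagcc
Syt8 at chr7:142436846-142436875 (+): catgtgtgcaggaGGACctctaaagggaga
Gm26628 at chr6:71963734-71963763 (-): ccatacaggaactGGACcacgctgccatcg

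The strongest members were mostly protein-coding genes and pseudogenes with 1 peak. H2bc12, which encodes a copy of the nucleosome protein histone H2B, had the highest value: 1 peak of 375 bases in the 3' UTR (chromosome 13, 22035895 to 22036269, plus strand) at 5.49 on the log2 scale, a 44.9-fold enrichment, and an adjusted p of 1.43e-07. The peak spanned 78.8% of the gene, whose sequence is close to that of other H2B genes, so the assignment of its reads is uncertain. The pseudogene Gm14414 followed with 5.12 in a noncoding exon (adjusted p = 6.06e-77). Osbpl10, an oxysterol-binding-protein relative that moves lipids between membranes, had 4.84 in its 5' UTR, in a peak that starts at the first base of the gene, and 1.04 in its 3' UTR. Amer3, a member of a family that binds the adenomatous polyposis coli protein, had 4.76 in its 3' UTR, and Gm15516 had 4.60 in a noncoding exon. Between 3 and 4 came Gm10654 (3.85), A130077B15Rik (3.81), the axonemal gene Spag6l (3.78), Selenok-ps8 (3.61), Fem1al (3.52), Rpl7a-ps10 (3.46), Gm45553 (3.39), Bahcc1 (3.39), the integrin gene Itgb4 (3.39), Gm7059 (3.36), Pla2g4b (3.33), the GATA cofactor gene Zfpm2 (3.08), the glutamate receptor subunit gene Grin3b (3.03) and Gm7324 (3.03). The RIKEN transcript 1700001L05Rik, at 2.97 or 7.81-fold, was the last of the 20 strongest. By RefSeq these 20 were 11 protein-coding genes, 5 pseudogenes, 2 long noncoding RNAs and 2 genes without a match. Their strongest peaks had a median span of 338 bases and an adjusted p of at most 3.09e-06, and 1 of the 20, Pla2g4b, lay on a WT peak of another gene.

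Most members were far below these. The median log2 over the 874 peaks was 0.85 (95% interval of the median 0.82 to 0.89, quartiles 0.62 and 1.22, range 0.28 to 5.49), which is described here without a test because the same list chose the members. At 4-fold or more there were 78 peaks of 75 genes, 8.92% of the members' peaks, where 3.93% of all KO peaks with a gene reached that level. That share was 14.6% for genes of both lists with 1 KO peak and 32.1% for WT peaks of genes found in WT only. The median was 0.70 for KO peaks of genes in both lists, 1.09 for the 3006 genes of both lists with 1 KO peak, and 1.45 for WT peaks of genes found in WT only. The members thus stood above the KO peaks of shared genes, below shared genes that also had 1 peak, and below the genes marked in WT only. Each list carries its own scaling, so KO and WT values set side by side describe the lists.

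**Figure D1:**
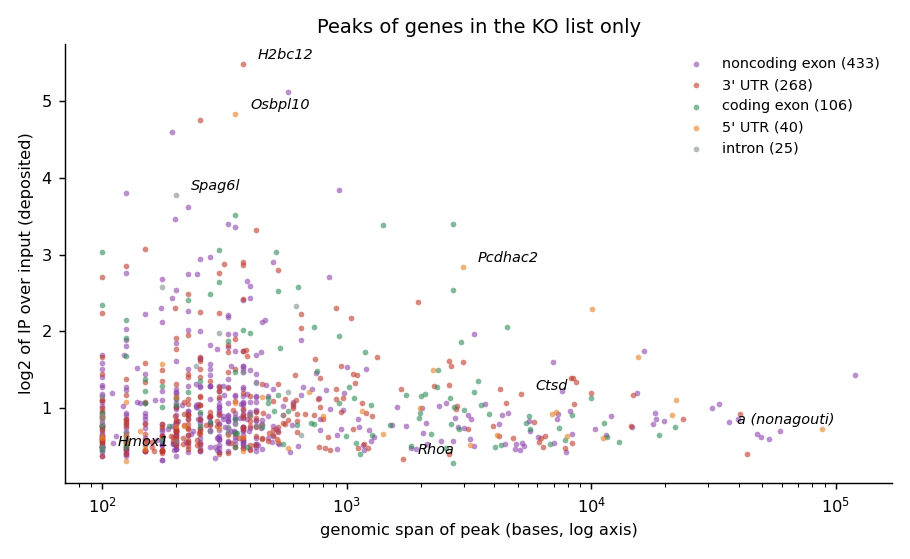
Deposited log2 of IP over input (vertical) against the genomic span of the peak in bases (horizontal, log axis) for the 874 peaks of genes in the KO list only, 1 point per peak, coloured by annotated region. The peaks of Gm50371 (noncoding intron) and 4933405L10Rik (no region given) are not drawn. Peaks above a log2 of 3 lie mostly between 100 and 1000 bases, and the widest peak, of 119359 bases, has a value of 1.43.

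Noncoding exons held the largest share of the members' peaks, 433 of 874 (49.5%, 95% Wilson interval 46.2 to 52.9). The 3' UTR followed with 268 (30.7%, 27.7 to 33.8), then coding exons with 106 (12.1%, 10.1 to 14.5), 5' UTRs with 40 (4.58%, 3.38 to 6.17) and introns with 25 (2.86%, 1.94 to 4.19). KO peaks of genes in both lists were placed differently, with 5.49% in noncoding exons, 52.0% in 3' UTRs, 25.4% in coding exons and 12.1% in 5' UTRs. Genes of both lists with 1 KO peak came closer, with 38.6% in noncoding exons (36.8 to 40.3) and 54.4% in 3' UTRs, but with 3.53% in coding exons. Genes marked in WT only were placed like the members: 51.5% in noncoding exons (48.9 to 54.2), 28.4% in 3' UTRs, 12.9% in coding exons and 5.85% in 5' UTRs, with intervals that overlap those of the members in each of these 4 classes. Introns differed, with 1.17% (0.721 to 1.89) in WT-only genes. Genes marked in 1 genotype alone thus had about the same noncoding share on either side. The noncoding share moved with a limit on width: with peaks of at most 1000 bases in both lists, 1739 genes were KO-only, with 22.6% of their peaks in noncoding exons and 47.1% in 3' UTRs. Intervals cover the counting of peaks only.

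**Figure D2:**
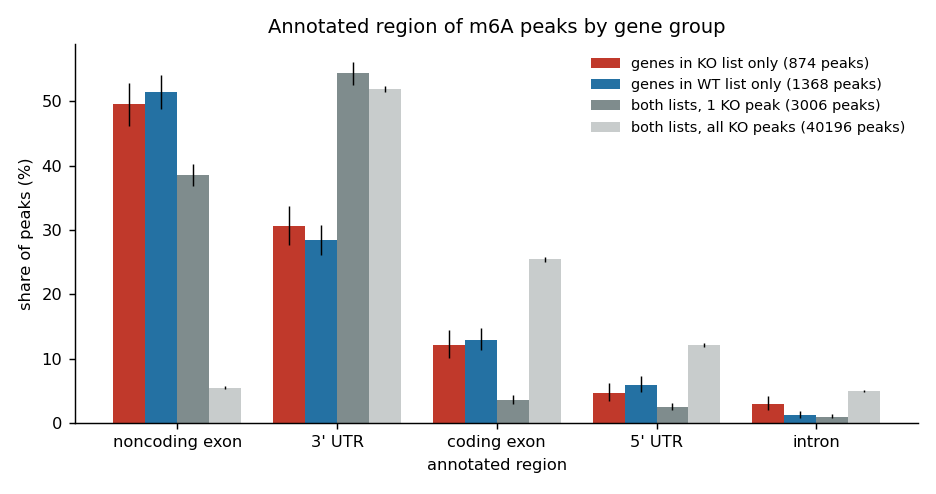
Share of peaks (%) by annotated region for genes in the KO list only, genes in the WT list only, genes of both lists with 1 KO peak, and all KO peaks of genes in both lists, with 95% Wilson intervals as error bars. The KO-only bar stands at 49.5% and the WT-only bar at 51.5% in noncoding exons, against 5.49% for all KO peaks of shared genes.

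Within the members, values differed little between regions. The median log2 was 0.84 in noncoding exons (95% interval 0.79 to 0.88), 0.85 in 3' UTRs (0.78 to 0.92), 0.77 in 5' UTRs (0.65 to 0.96), 0.85 in introns (0.75 to 1.20) and 1.01 in coding exons (0.87 to 1.13). The strongest 5' UTR peaks were in Osbpl10, in the protocadherin gene Pcdhac2 (2.84) and in Commd5 (2.28). Coding exons were led by Fem1al, Bahcc1 and Itgb4. In introns Spag6l (3.78), Brinp3 (2.58) and Heph (2.33), a copper-dependent iron oxidase gene, had the highest values. Single peaks fell outside these classes: the intron of the noncoding Gm50371 (0.38) and a peak of 4933405L10Rik (0.50) with no region given.

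The members' peaks were narrow. A span is a stretch of genome and can include introns. Its median was 325 bases (95% interval 300 to 350, quartiles 200 and 708), against 550 for KO peaks of genes in both lists, 634 for shared genes with 1 KO peak and 400 (375 to 425) for genes in WT only. Spans over 1000 bases made up 20.6% of the members' peaks (18.0 to 23.4), 39.3% in shared genes, 40.5% in shared genes with 1 KO peak and 28.4% in WT-only genes. Coding-exon members were the widest, with a median of 731 bases and 48 of 106 peaks over 1000 bases, while noncoding exons and introns both had a median of 300 bases. The 5 widest peaks belonged to Gm25649 (119359 bases), the nonagouti gene (87313), 5330438D12Rik (59122), Gm16066 (52980) and Gm26510 (49241). Gm25649 itself is listed as 110 bases long, and its peak, on the minus strand of chromosome 13, extends over the position of the member Selenok-ps8 on the plus strand. A peak wider than the listed gene was found for 17 members, 7 of them small RNA genes such as Snora43 (1.52), a guide for pseudouridylation.

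Most members had 1 peak. Of the 708 genes, 586 had 1 (82.8%, 95% Wilson interval 79.8 to 85.4), 87 had 2, 29 had 3 and 6 had 4 or more, whereas 24.4% of genes in both lists and 78.8% of WT-only genes had 1. The genes were also short, with a median genomic length of 4254 bases against 20231 for shared genes and 6763 for WT-only genes. Abca6, a lipid transporter of the ABC family, had the most peaks, 6 along the gene: 1 in the 5' UTR (0.52), 4 in coding exons (0.52 to 0.80) and 1 in the 3' UTR (0.66). All 6 were weak, and their adjusted p-values were between 8.66e-04 and 0.046. Mtss2, which encodes a membrane-bending protein, had 5 peaks from 0.74 to 1.75. The ubiquitin ligase gene Neurl1b had 4 peaks in its 3' UTR, at 2.04, 1.34, 1.26 and 0.99. Coq8b, needed for coenzyme Q synthesis, had 4 peaks that ran from the 5' UTR (0.65) through a coding exon (2.05) to the 3' UTR (0.63 and 0.55). The zinc-finger transcript 4930522L14Rik (strongest 1.98) and Asb4 (0.78) had 4 as well, all those of Asb4 in its 3' UTR, from 0.45 to 0.78.

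Pseudogenes were the most frequent kind of noncoding member. Of the 708 genes, 553 (78.1%) matched a RefSeq symbol, and of these 291 were protein coding (52.6%), 178 pseudogenes (32.2%, 95% Wilson interval 28.4 to 36.2), 73 long noncoding RNAs (13.2%, 10.6 to 16.3) and 10 small RNAs. Pseudogenes made up 17.1% (14.6 to 19.8) of matched WT-only genes, 15.9% of shared genes with 1 KO peak and 4.26% of shared genes. Long noncoding RNAs went the other way between the lists, with 27.4% (24.4 to 30.6) of matched WT-only genes. The intervals of the KO-only and WT-only shares did not overlap for either class. Counted the other way, 26.3% of the pseudogenes with a KO peak, 11.5% of the long noncoding RNAs and 2.67% (2.38 to 2.99) of the protein-coding genes had no WT peak. Of those with a WT peak, 21.4% of the pseudogenes (18.4 to 24.8), 27.9% of the long noncoding RNAs (24.9 to 31.2) and 3.88% of the protein-coding genes had no KO peak. On this count the pseudogene interval overlapped that of KO (23.1 to 29.7), while the long noncoding RNA interval did not overlap that of KO (9.24 to 14.2). The pseudogene peaks had a median log2 of 0.92 (0.85 to 1.03) and a median span of 289 bases, and 62 of 196 covered over 50% of the pseudogene.

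Pseudogenes named after a parent gene allow both to be compared. Their reads can be hard to tell from those of the parent, and how the authors placed such reads is not given in the sources used here, so the values of these copies are uncertain. There were 46 of them, 23 of ribosomal protein genes and 23 of other genes, out of 173 with a KO peak (26.6%, 95% Wilson interval 20.6 to 33.6), while 16.4% of 152 such pseudogenes with a WT peak had no KO peak. The gene in the symbol had peaks in both lists for 41 of the 46 and in KO only for 1, Rps26-ps1. For the other 4 the symbol cut from the name matched no row of either list, which can be a failed name match (Glud-ps does not match Glud1), so no parent value is given. None of the 46 overlapped a WT peak on the same strand. Over all 46 the median log2 was 0.81, and over the 41 the pseudogene's strongest peak was above the parent's strongest KO peak in 14. The parents' medians were 0.92 in KO and 1.01 in WT.

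**Figure D3:**
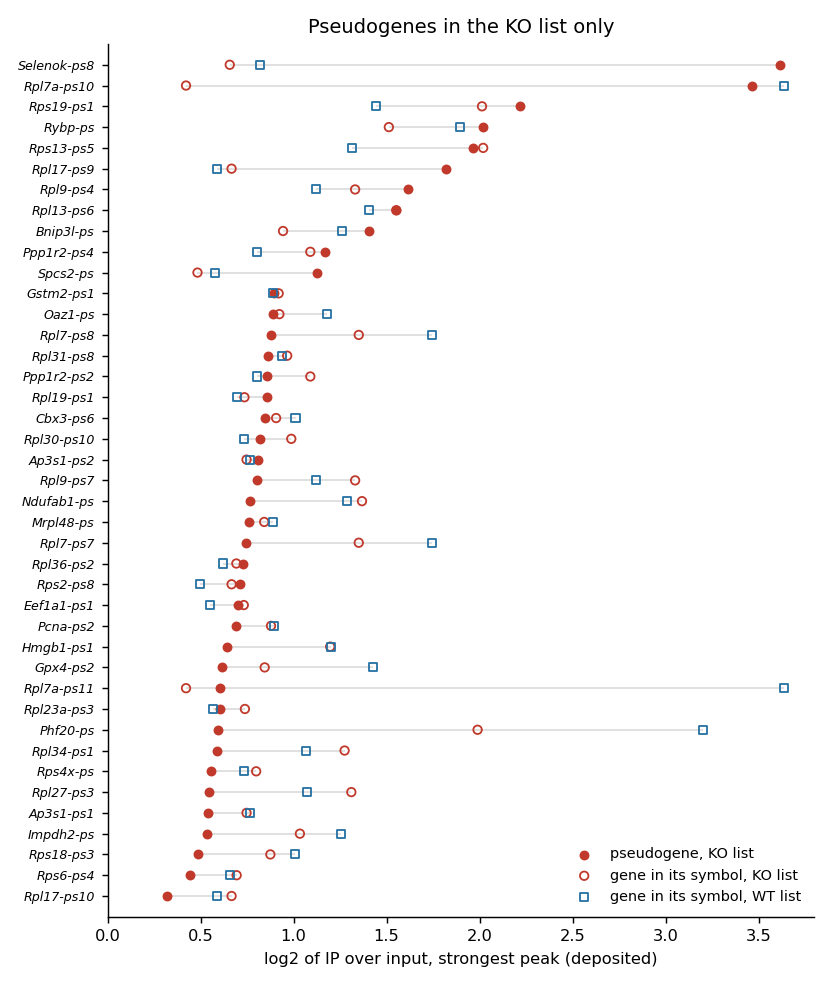
Deposited log2 of the strongest peak for 41 pseudogenes found in the KO list only (filled circles), for the gene named in their symbol in the KO list (open circles) and in the WT list (open squares). Selenok-ps8 (3.61) and Rpl7a-ps10 (3.46) stand far right of their parents' KO values, and for 14 of the 41 the filled circle is to the right of the open circle.

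Selenok-ps8, a copy of a selenoprotein gene, had a log2 of 3.61, while Selenok had 0.66 in KO and 0.82 in WT. Rpl7a-ps10 had 3.46, where Rpl7a had 0.42 in KO and 3.63 in WT. Another copy, Rpl7a-ps11, had 0.60. Rps19-ps1 had 2.22, close to Rps19 in KO (2.01) and above it in WT (1.44). Rybp-ps had 2.02, with Rybp at 1.51 and 1.89. At the weak end, Rpl17-ps10 had 0.32 beside 0.67 and 0.59 for Rpl17, although another copy, Rpl17-ps9, had 1.82. Nxpe1-ps (2.19) and Mrip-ps (1.49) were the strongest of the 4 with no matched parent.

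Rps26, a protein of the small ribosomal subunit, was the only cytosolic ribosomal protein gene among the members: of 78 genes, 75 were found in both lists, 2 in neither and Rps26 in KO only. It had a 3' UTR peak of 0.48 with an adjusted p of 2.12e-196 and a 5' UTR peak of 0.65 with an adjusted p of 0.014. Its pseudogene Rps26-ps1 had a peak of 0.84 that spanned 100% of the copy, with an adjusted p of 7.22e-24. Of 77 mitochondrial ribosomal protein genes with a KO peak none was a member (Wilson interval 0 to 4.75%). Of 97 respiratory chain subunits 1 was (0.182 to 5.61%), Cox6c2 (1.21). This is a cytochrome oxidase name that RefSeq lists as a pseudogene, with its peak in a noncoding exon. For the cytosolic genes it was 1 of the 76 with a KO peak (1.32%, 0.233 to 7.08). Each of these intervals includes 2.67%, the share of protein-coding genes. The low counts thus do not set these families apart from protein-coding genes. Only the mitochondrial ribosomal interval lies below the 5.43% of all genes. The mitochondrial genome contributed mt-Nd5 (0.49, adjusted p = 0.030), a subunit of complex I and 1 of 3 mitochondrially encoded genes with a KO peak.

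The largest name group was the predicted genes with Gm numbers, 303 of the 708. RefSeq held 128 of these as pseudogenes, 34 as long noncoding RNAs, 11 as protein coding and 3 as small RNAs, and 127 had no match. They were 21.7% (95% Wilson interval 19.7 to 24.0) of the 1394 Gm genes with a KO peak, and in WT 29.2% (27.0 to 31.5) of 1541 were WT-only. RIKEN clone genes gave 54 members of 540, led by A130077B15Rik and 1700001L05Rik, with 19.0% WT-only in the other list. Antisense and opposite-strand transcripts gave 8 of 76 (10.5%), and 26.1% of 92 were WT-only. Usp46os1 (1.19), Ube4bos3 (0.98), Fcnaos (0.89), Tnk2os (0.79) and Kdm6bos (0.63) were the strongest of the 8. Small nucleolar RNA genes and hosts gave 2 of 20, Snora43 (1.52) and Snora61 (0.46), and none of 18 in the other direction.

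**Figure D4:**
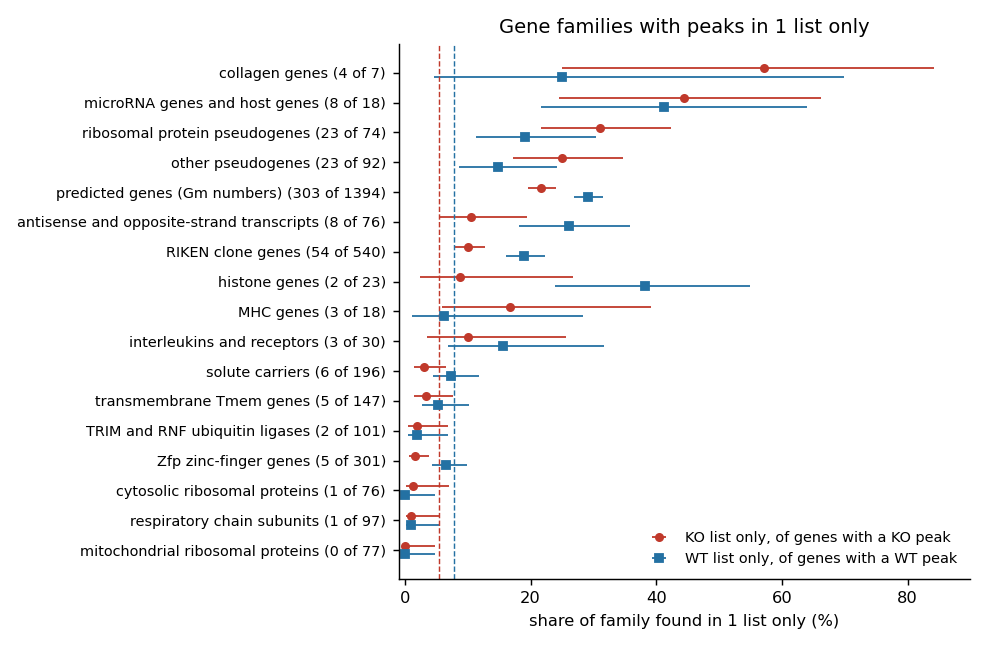
Share of each gene family found in 1 list only (%), as KO-only genes of those with a KO peak (red circles, counts in brackets) and WT-only genes of those with a WT peak (blue squares), with 95% Wilson intervals. Dashed lines mark the shares over all genes, 5.43% for KO and 7.83% for WT. The lower shares of protein-coding genes, 2.67% for KO and 3.88% for WT, are not drawn.

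Some families with names of protein-coding genes are set beside the 2.67% of protein-coding genes with a KO peak that had no WT peak. Zinc-finger genes with a Zfp symbol had 5 of 301 (1.66%, 95% Wilson interval 0.712 to 3.83): Zfp773 (1.72), Zfp953 (1.01), Zfp433 (0.93), Zfp963 (0.92) and Zfp965 (0.76). In the WT direction it was 6.62% (4.37 to 9.91) of 317. Solute carriers, which move metabolites and ions across membranes, gave 6 of 196 (3.06%), led by Slc7a14 (1.73), the lactate carrier Slc16a8 (1.54) and the dicarboxylate carrier Slc13a3 (1.09). Tmem genes gave 5 of 147 (3.40%), led by Tmem91 (1.20). Histone genes gave 2 of 23, H2bc12 and H4c12 (0.81), while 13 of 34 with a WT peak were WT-only (38.2%, 23.9 to 55.0). The intervals of all 4 families included 2.67%.

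Some small families had larger shares, with wide intervals. Of 7 collagen genes with a KO peak, 4 were members (57.1%, 95% Wilson interval 25.0 to 84.2), and of 4 with a WT peak 1 was WT-only. Col11a2 had 1.40 and 0.73 in its 3' UTR, and Col15a1 (1.17), Col18a1 (0.90) and Col20a1 (0.80) had their strongest peaks in coding exons, those of Col18a1 and Col20a1 spanning over 1000 bases. Major histocompatibility complex genes gave 3 of 18: H2-M2 (1.66), H2-Q5 (1.49, a pseudogene in RefSeq) and H2-Q6 (1.46), all of them class I, and 1 of 16 was WT-only. These genes resemble each other in sequence, so the assignment of their reads is uncertain too. Potassium channel genes gave Kcna7 (1.08), Kcnab3 (0.92) and Kcne3 (0.85) of 13, and the same number of 13 were WT-only. Olfactory receptor genes gave 3 of 10, Olfr110 (2.34), Olfr77 (1.51) and Olfr56 (1.10), of which the Olfr56 peak overlapped a WT peak of the interferon-induced gene Ifi47, and 2 of 9 were WT-only.

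A few genes of the LPS response were among the members. Of 15 chemokine genes, Ccl4, a chemoattractant for monocytes and other leukocytes, was KO-only, 1 was WT-only, 7 were in both lists and 6 in neither. That is 1 of the 8 with a KO peak (12.5%, 95% Wilson interval 2.24 to 47.1), beside 5.43% of all genes and 2.67% of protein-coding genes. The Ccl4 peak of 160 bases in the 3' UTR had a log2 of 0.55 and an adjusted p of 1.76e-55, a low enrichment with a very small p. Of 20 interleukin and growth factor genes 1 was KO-only, Il15 (0.61, adjusted p = 0.010), which supports natural killer and T cells, and 4 were WT-only. Il15 was 1 of the 12 with a KO peak (8.33%, 1.49 to 35.4), so both intervals include the share of all genes and that of protein-coding genes. By family name the strongest of the 3 interleukin-related members were Il18bp (1.43), a secreted binder of interleukin 18, and the receptor gene Il31ra (1.14). Of 28 interferon-induced genes none was KO-only, 4 were WT-only and 21 were in both. The WT peak of Ifi47, which is 1 of those 4, is the one that the KO peak of Olfr56 overlapped. None of 28 m6A writers, erasers and readers was a member, and 27 of them had peaks in both lists (95% Wilson interval 0 to 12.5%). For the interferon-induced and the m6A genes the KO interval includes 2.67%, the share of protein-coding genes. Their absence from the members thus does not set them apart.

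Stress and arginine genes gave some better-known members. Hmox1, the heme-degrading enzyme heme oxygenase 1, was the only 1 of 17 NRF2 and heme-stress genes found in KO only, and 15 were in both lists. That is 1 of the 16 with a KO peak (6.25%, 95% Wilson interval 1.11 to 28.3), beside 5.43% of all genes and 2.67% of protein-coding genes. Its peak was 100 bases of a coding exon at 0.45 with an adjusted p of 3.44e-19. Arginase 1, Arg1, which competes with nitric oxide synthase for arginine, had a coding-exon peak of 0.93 and a 3' UTR peak of 0.89, with adjusted p-values of 0.0039 and 0.0062. Ass1, which makes the precursor for arginine synthesis, had 0.49 (adjusted p = 0.0045). They were 2 of the 9 genes with a KO peak in a list of 14 genes of alternative activation and arginine metabolism (22.2%, 95% Wilson interval 6.32 to 54.7), with no WT-only gene. The interval lies above the 5.43% of all genes and the 2.67% of protein-coding genes. It rests on 2 genes of a list chosen with earlier results known. In the deposited KEGG column, Arginine biosynthesis had 3 members of 14 genes with a KO peak: Gls2 (1.19), a glutaminase, with Arg1 and Ass1.

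The KEGG column named a pathway for 117 of the 708 genes (16.5%, 95% Wilson interval 14.0 to 19.4), against 35.9% of genes in both lists and 15.1% of WT-only genes. Those 117 were 2.58% of the 4540 genes with a KO peak and a pathway, and this share is the one to set beside each pathway; the WT-only share of pathway genes was 3.45%. They spread thinly: 197 of 320 pathways had a member, 75 had 1 and 21 had 5 or more, and 77 of the 255 pathways with at least 20 KO genes had none. Endocytosis had the most, 9 of 207 (4.35%, 2.30 to 8.06), and 1 of 199 was WT-only. Its strongest members were the folate receptor gene Folr1 (1.67), the heat-shock gene Hspa1b (1.66), H2-M2, H2-Q6 and the clathrin adaptor gene Epn2 (1.37). Glutamatergic synapse had 6 of 53 (11.3%, 5.29 to 22.6): Pla2g4b, Grin3b, Gng4 (1.82), the postsynaptic scaffold gene Shank1 (1.61), Gls2 and Ppp3r1 (0.49). Its interval lies above the 2.58% of all pathway genes, in a table of 320 pathways. So do those of other pathways, among them Arginine biosynthesis (7.57 to 47.6) and Protein digestion and absorption (7.31 to 38.5). Of the 255 pathways with at least 20 KO genes, 111 had a share above 2.58%. Among the 6 genes of Glutamatergic synapse, Pla2g4b overlapped a WT peak on the same strand, and Shank1 and Gls2 did so on the opposite strand only.

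Other pathways described here had 4 to 7 members. Cytokine-cytokine receptor interaction had 6 of 98 (6.12%, 2.84 to 12.7), namely Il31ra, the TNF receptor family genes Tnfrsf4 (1.08) and Tnfrsf14 (0.90), Il15, Cntf (0.60) and Ccl4, while 14 of 106 were WT-only. Regulation of actin cytoskeleton had 6 of 143 (4.20%), with Itgb4, the myosin kinase gene Mylk (1.22), Rras2 (1.10), Rras (0.77), Fgd1 (0.66) and Rhoa. Rhoa, a GTPase that controls actin fibres, recurs in many of these pathways, and its 1 peak was among the weakest of all members: 0.33 over 1691 bases of the 3' UTR, with an adjusted p of 1.21e-58. Protein digestion and absorption had 4 of 22, 3 collagens and Kcne3, and 4 of 22 were WT-only. Herpes simplex virus 1 infection, a pathway that KEGG fills with zinc-finger genes, had 7 of 313 (2.24%) and 19 of 325 in WT.

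Some further immune genes among the members were chosen after their values were seen. Pdcd1lg2, which encodes the checkpoint ligand PD-L2, had a log2 of 2.86, and the lipoxygenase gene Alox15 had 2.48. Noxo1, an organiser of an NADPH oxidase, had 2.58. Ms4a6c had 2.24, the adhesion gene Cd2 had 2.05, the lysozyme gene Lyz1 had 1.62, the receptor gene Treml4 had 1.44 and the lipid-antigen-presenting Cd1d1 had 1.40. The scavenger receptor gene Stab1 (0.77) and complement factor B, Cfb (0.78), were weaker.

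A gene can be missing from the WT list although its position is marked there under another name. Of the 874 peaks, 49 (5.61%, 95% Wilson interval 4.27 to 7.33) of 41 genes shared at least 1 base with a WT peak of another gene on the same strand, and 10 shared 50% of both peaks. A further 81 (9.27%) overlapped a WT peak only on the opposite strand. Of the 49, 27 were in 3' UTRs. Where several WT peaks overlapped 1 KO peak, the strongest of them was taken, which favours a lower KO value. Some KO peaks also shared 1 WT peak, so the 49 are not separate pairs. On this choice the KO value was the lower in 42 of the 49 and the KO span the shorter in 42. The medians were 1.05 and 741 bases in KO and 1.93 and 5401 bases in WT.

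Genes of lysosomal enzymes were in this set. Ctsd, the lysosomal protease cathepsin D, had a 3' UTR peak of 5150 bases at 1.18 and another of 813 bases at 0.47, both with an adjusted p listed as 0. Both overlapped a WT peak of 6013 bases at 0.97 that the authors assigned to the neighbouring Ifitm10. Hyal1, a lysosomal hyaluronidase, had 1.60 and 0.53, and Naa80, the actin acetyltransferase gene beside it, had 1.49 and 0.57. All of these overlapped 1 WT peak of 6238 bases assigned to Hyal3 (2.05). Commd5 had 2.28, 2.17 and 1.16, on a WT peak of Zfp7 (3.25). Pcdhac2 lay on a WT peak of Pcdhac1 (3.25) that spans 53981 bases, and the nonagouti peak matched a WT peak of 84393 bases assigned to Raly (0.68). Scamp4 (1.64), Gm49416 (1.28), Gm49339 (0.87) and Gm26992 (2.38) were on WT peaks of Gm49322, Lbhd1, Lilrb4a and Tsx. 4933434E20Rik overlapped a WT peak with its own symbol under another gene ID, the only such case by symbol. Dynlt1f (0.66) overlapped a WT peak to which no gene was assigned.

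**Figure D5:**
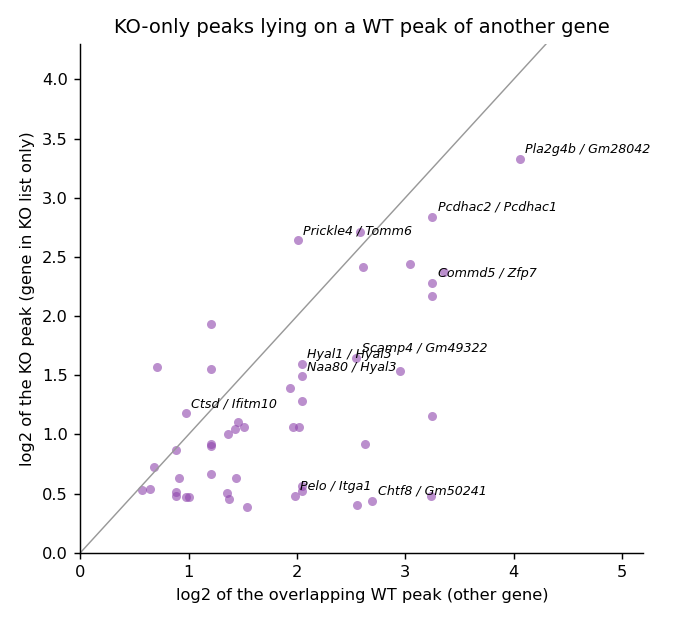
Deposited log2 of 49 KO peaks of genes in the KO list only (vertical), 1 point per KO peak. The horizontal axis gives the log2 of the WT peak of another gene that overlaps it on the same strand, the strongest where there were several. The line marks equal values, and some pairs are named as KO gene / WT gene. The KO value is below the line for 42 of the 49.

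Of the 10 members with the smallest adjusted p, 9 overlapped a WT peak of another gene on the same strand. The exception was Tmsb10, the actin-monomer-binding thymosin gene. It had a 3' UTR peak of 152 bases at 0.57, with an adjusted p listed as 0, and a 5' UTR peak of 125 bases at 0.31, with an adjusted p of 6.15e-44. Among the members without such an overlap, the smallest adjusted p after Tmsb10 were those of Rps26, Gm10705 (2.15), Gm10709 (0.65), Gm14414 and Rpl9-ps4 (1.61). The strongest members with an overlap on the opposite strand alone were Arhgap6 (2.76, opposite Hccs), Gm10284 (2.59, opposite Galnt7) and B3gnt4 (2.30, opposite Diablo).

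The members' adjusted p-values were larger than those of shared genes. Of the members' peaks, 48.4% (95% Wilson interval 45.1 to 51.7) had an adjusted p above 0.001, against 22.3% of KO peaks of shared genes, 12.9% for shared genes with 1 KO peak and 30.9% of WT-only peaks. For 304 of the 708 genes (42.9%) no peak was at or below 0.001, which held for 4.84% of shared genes. For 130 genes (18.4%) no peak was at or below 0.01, and 1.03% of the members' peaks were above 0.05. The members just inside were Itpka (0.76), Gm49933 (0.52), Phf20-ps (0.59), Gm38843 (0.73) and Gm36172 (0.73), with adjusted p-values from 0.050 to 0.052. Just outside were genes kept out by WT peaks with an adjusted p from 0.048 to 0.053: Gm6052 (0.66 in WT, 1.13 in KO), Gm20186 (0.61, 0.86), Rpl5-ps1 (0.61, 0.82), 2900052L18Rik (0.68, 1.03) and Ptbp2 (0.76, 0.71). The members lay on all chromosomes that had KO genes except Y, from 3.83% of the genes with a KO peak on chromosome 12 to 7.30% on chromosome 10 among the autosomes, and 7.28% on X.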

How the data were processed

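Per the labels' protocols, polyadenylated RNA was fragmented, precipitated with an m6A antibody and made into strand-marked libraries together with its input. Tools named in the submitters' processing notes, without versions or roles, are edgeR, fastp, FastQC, HISAT2, HOMER and StringTie. Not given in the sources used here are the peak caller, the build, the handling of reads with several matches and whether replicates were pooled. Each genotype has 1 list of peaks. Per the file headers, each row deposited has a log2 fold (IP against input), a p-value with its adjusted form, a region, a gene and KEGG pathways.

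The members were found by gene ID with Python 3.11.15, pandas 2.3.3 and SciPy 1.17.1, and figures were drawn with matplotlib 3.10.9. Deposited starts count from 0 and are printed counting from 1, as deposited otherwise. A gene's value is its strongest peak. The 83 KO peaks with no gene ID were left out. Peaks overlap when they share 1 base or more on 1 strand. Shares have 95% Wilson intervals and medians binomial order-statistic intervals; both cover counting only. Symbols were matched to RefSeq's GRCm38.p6 tables, which also gave the sequences. Members on chromosome 18 were left out of the search for microRNA entries and of the search of start sequences. GGAC was searched on both strands and can overlap no other motif searched.

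The members, the gene lists, the families and the tests were chosen with earlier results of these data known, and family name patterns were corrected after their matches were seen. Genes are named as the 20 strongest, the 10 with the most peaks (the first 6 are described) and the 10 with the smallest adjusted p, the 3 strongest per region, the 5 widest, up to 5 strongest per family, list or pathway described, and 5 on each side of the limit; any other gene was picked with its value known. The alternatives were stricter adjusted p-values, equal numbers of peaks, short peaks, matching by symbol and leaving out genes by position. The steps were run on an altered copy of the WT list: all 200 removed genes were recovered with 0 wrong, and all 50 renamed genes were found by position. Both outcomes follow from how the copy was made, so they check the code and not the calling of peaks.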

Additional observations from a re-analysis of the deposited data

How the results depend on the processing

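Shares, medians and counts were recomputed under 8 alternatives. The set depended most on the limits that define a peak. With adjusted p of at most 0.001 in both lists, noncoding exons held 43.5% and 3' UTRs 35.0% of the peaks, the median span was 400 bases and the median log2 0.99, 88.9% of genes had 1 peak and 7.46% of peaks overlapped a WT peak of another gene. With that limit on the KO list alone, 404 genes remained, with 375 bases, 1.02, 90.3% and 9.98%. With the KO list limited to as many peaks as the WT list, the median log2 was 0.95 and 87.1% of genes had 1 peak. With peaks over 1000 bases dropped from both lists, 1739 genes were KO-only, with 22.6% of peaks in noncoding exons, 47.1% in 3' UTRs, 15.7% in coding exons and 8.64% in 5' UTRs, a median log2 of 0.78, 69.2% of genes with 1 peak and 0.476% of peaks overlapping; genes whose only WT peak was wide enter the set by construction. The overlapping share was 14.9% with strand ignored and 1.14% with 50% of both peaks. The other values, including all those for matching by symbol, moved by less than the 95% interval, or for the count by less than 1.5 times. No paired analysis was possible because the lists carry no per-library value, and for the same reason no replicate could be left out. Depth per library is unknown.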
